A study of Mus musculus with 16 samples.

Results

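Expression of 8 genes of SREBP-2 sterol sensing and LDL receptor control was measured in mouse liver: Srebf2, Scap, Insig1, Insig2, Mbtps1, Mbtps2, Stard4 and Mylip. They were chosen by gene symbol, and each of the 8 symbols matched 1 gene among the 25803 in the deposited tables. All 8 were expressed above the filter on low counts, which left 14488 genes to test. Livers of male mice were sequenced in bulk as 16 libraries, 4 in each of 4 groups, and all mice, controls included, had been fed a high-fat diet for 12 weeks. Fasted control mice and fasted CPT1a LKO mice were taken after a 16 h fast, and refed control and refed CPT1a LKO mice after the same fast followed by 6 h of refeeding. CPT1a LKO denotes a liver knockout of Cpt1a, which encodes the carnitine palmitoyltransferase that admits long-chain fatty acids to mitochondrial oxidation. How the knockout was produced, the strain and the age are not given in the sources used here. The study's title concerns plasma cholesterol after loss of this enzyme in the liver.

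In liver and other tissues, SREBP-2, the product of Srebf2, is made as a membrane protein of the endoplasmic reticulum bound to its escort, SCAP. When sterol is low, SCAP carries SREBP-2 in COPII vesicles to the Golgi, where the site-1 and site-2 proteases release a transcription factor that activates cholesterol synthesis genes, the LDL receptor gene, Insig1 and Srebf2 itself. When sterol is ample, SCAP binds an INSIG protein and the complex stays in the endoplasmic reticulum. STARD4 moves cholesterol between membranes, and MYLIP (also called IDOL) is a ubiquitin ligase, induced by the sterol-sensing LXR receptors, that marks the LDL receptor for degradation. These are steps of protein traffic and cleavage, so the RNA levels given here measure the genes and not the activity of the proteins.

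Libraries held 14721601 to 24618230 counts, and levels are given as CPM, counts per M (mega) counts of the scaled library total. Cpt1a RNA averaged 487 ± 83.2 CPM in control and 101 ± 17.3 CPM in LKO livers after the fast, and 457 ± 137 and 54.2 ± 16.6 CPM after refeeding (SD, n = 4), with no overlap between the genotypes in either state. All 8 hepatocyte markers examined were detected in every group, and their summed level was 69259 to 80090 CPM in control and 54978 to 70145 in LKO libraries when fasted, and 73866 to 91319 and 62379 to 73157 when refed. The summed level of 8 lymphocyte and plasma cell markers was 4.94 to 8.54 CPM, 14.97 to 35.2, 4.46 to 6.21 and 16.9 to 39.6 in the same order, and Jchain averaged 18.4 and 23.8 CPM in fasted and refed LKO against 1.78 and 1.67 CPM in control livers. The summed level of 6 adipocyte markers was lower in LKO, at 501 to 1388 against 2067 to 3498 CPM when fasted and 1588 to 2473 against 3906 to 5401 CPM when refed. Most of that sum was Car3, which liver also expresses, while the defining adipocyte markers Adipoq and Lep averaged at most 0.128 CPM in any group. Within the list Cidec went the other way, averaging 270 CPM in fasted LKO against 58.9 CPM in fasted control, and 84.1 against 33.5 CPM when refed. Cfd was lower in LKO, at 3.24 against 34.4 CPM when fasted and 1.87 against 16.7 CPM when refed. For 8 resident macrophage markers the sums overlapped between genotypes, with medians of 503 and 400 CPM in fasted and 483 and 305 CPM in refed control and LKO libraries. The part of these shifts in the results was not tested, and in bulk tissue fewer cells of a type and less RNA per cell cannot be told apart. A pair of libraries stood apart from their groups. In refed control library S49, 20 enzymes of cholesterol synthesis lay on average 1.13 above their mean over the 16 libraries in log2 CPM, against -0.84 to -0.33 in the other 3 refed controls. In refed LKO library S52 the same mean was 0.51, against 1.37 to 2.01 in the other 3.

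Promoter sequence is shown for Srebf2, which rose on refeeding in LKO livers, and for the INSIG pair, which moved in opposite directions there. The windows run from 250 bases before to 50 after each annotated start in RefSeq on GRCm38.p6. Stard4 was left out of this search, and the other 7 of the 8 genes had 10 such windows. They are printed 5′ to 3′ on the strand of the gene, and capitals mark letters matching a sterol regulatory element (SRE, TCACNCCAC), a shorter SRE core (ATCACCCC) or a CCAAT box (CCAAT), each searched on both strands. The SRE core was added to the search after the Srebf2 window had been seen. The Srebf2 window is chr15:82147019-82147318 on the plus strand, the Insig1 window is chr5:28071162-28071461 on the plus strand, and the pair of Insig2 windows shown, on the minus strand, are chr1:121332540-121332839 for the more upstream start and chr1:121327629-121327928 for the most downstream start.
Srebf2: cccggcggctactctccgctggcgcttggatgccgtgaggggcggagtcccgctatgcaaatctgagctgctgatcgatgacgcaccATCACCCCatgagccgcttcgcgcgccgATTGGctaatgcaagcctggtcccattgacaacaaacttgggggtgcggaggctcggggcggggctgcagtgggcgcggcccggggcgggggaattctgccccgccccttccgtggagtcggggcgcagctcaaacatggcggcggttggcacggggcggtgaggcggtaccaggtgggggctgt
Insig1: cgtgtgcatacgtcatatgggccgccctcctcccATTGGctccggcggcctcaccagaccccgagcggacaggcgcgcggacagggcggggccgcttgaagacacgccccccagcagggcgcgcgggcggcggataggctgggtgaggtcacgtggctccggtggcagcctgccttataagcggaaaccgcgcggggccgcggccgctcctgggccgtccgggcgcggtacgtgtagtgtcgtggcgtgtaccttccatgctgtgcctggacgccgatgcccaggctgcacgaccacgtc
Insig2 upstream: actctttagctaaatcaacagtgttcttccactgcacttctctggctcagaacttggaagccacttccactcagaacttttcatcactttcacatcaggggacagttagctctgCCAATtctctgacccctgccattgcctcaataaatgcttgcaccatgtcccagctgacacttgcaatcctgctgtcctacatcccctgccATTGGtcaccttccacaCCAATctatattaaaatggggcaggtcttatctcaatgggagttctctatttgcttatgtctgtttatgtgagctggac
Insig2 downstream: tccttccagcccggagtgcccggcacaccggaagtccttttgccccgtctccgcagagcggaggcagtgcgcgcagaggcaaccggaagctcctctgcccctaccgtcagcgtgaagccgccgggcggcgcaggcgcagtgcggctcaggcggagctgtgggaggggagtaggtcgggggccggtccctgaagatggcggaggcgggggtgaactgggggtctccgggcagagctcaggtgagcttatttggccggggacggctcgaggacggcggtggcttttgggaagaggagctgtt

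The Srebf2 window held 1 SRE core, whose first base lies at -163 from the start, and 1 CCAAT box on the opposite strand at -135. Of 32851 promoter windows of the same length, 0.77% held the SRE core, 1.24% the SRE and 37.4% a CCAAT box. None of the 10 windows of the 7 genes searched held the SRE, and among these windows the SRE core occurred only in that of Srebf2. Insig1 had 1 CCAAT box at -216, an E-box (CACGTG, in 7.15% of windows) at -101, and GC boxes (GGGCGG, in 35.7% of windows). The upstream Insig2 window had 3 CCAAT boxes, at -136, -46 and -29, and no GC box or E-box, while the downstream window had 1 GC box at -128 and no CCAAT box. A match describes letters in a window and is not evidence that a factor binds there. Counts per gene do not separate transcripts from these Insig2 starts.

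In LKO livers Insig1, Stard4 and Srebf2 rose on refeeding and Insig2 fell. In control livers Insig1 rose, with 1 refed library at the fasted level, and Scap fell. Between genotypes, Mbtps2 was higher in fasted LKO than in fasted control livers, though 6 of 8 fits leaving out a library lost this call. No member was called between refed LKO and refed control livers.

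**Figure D1:**
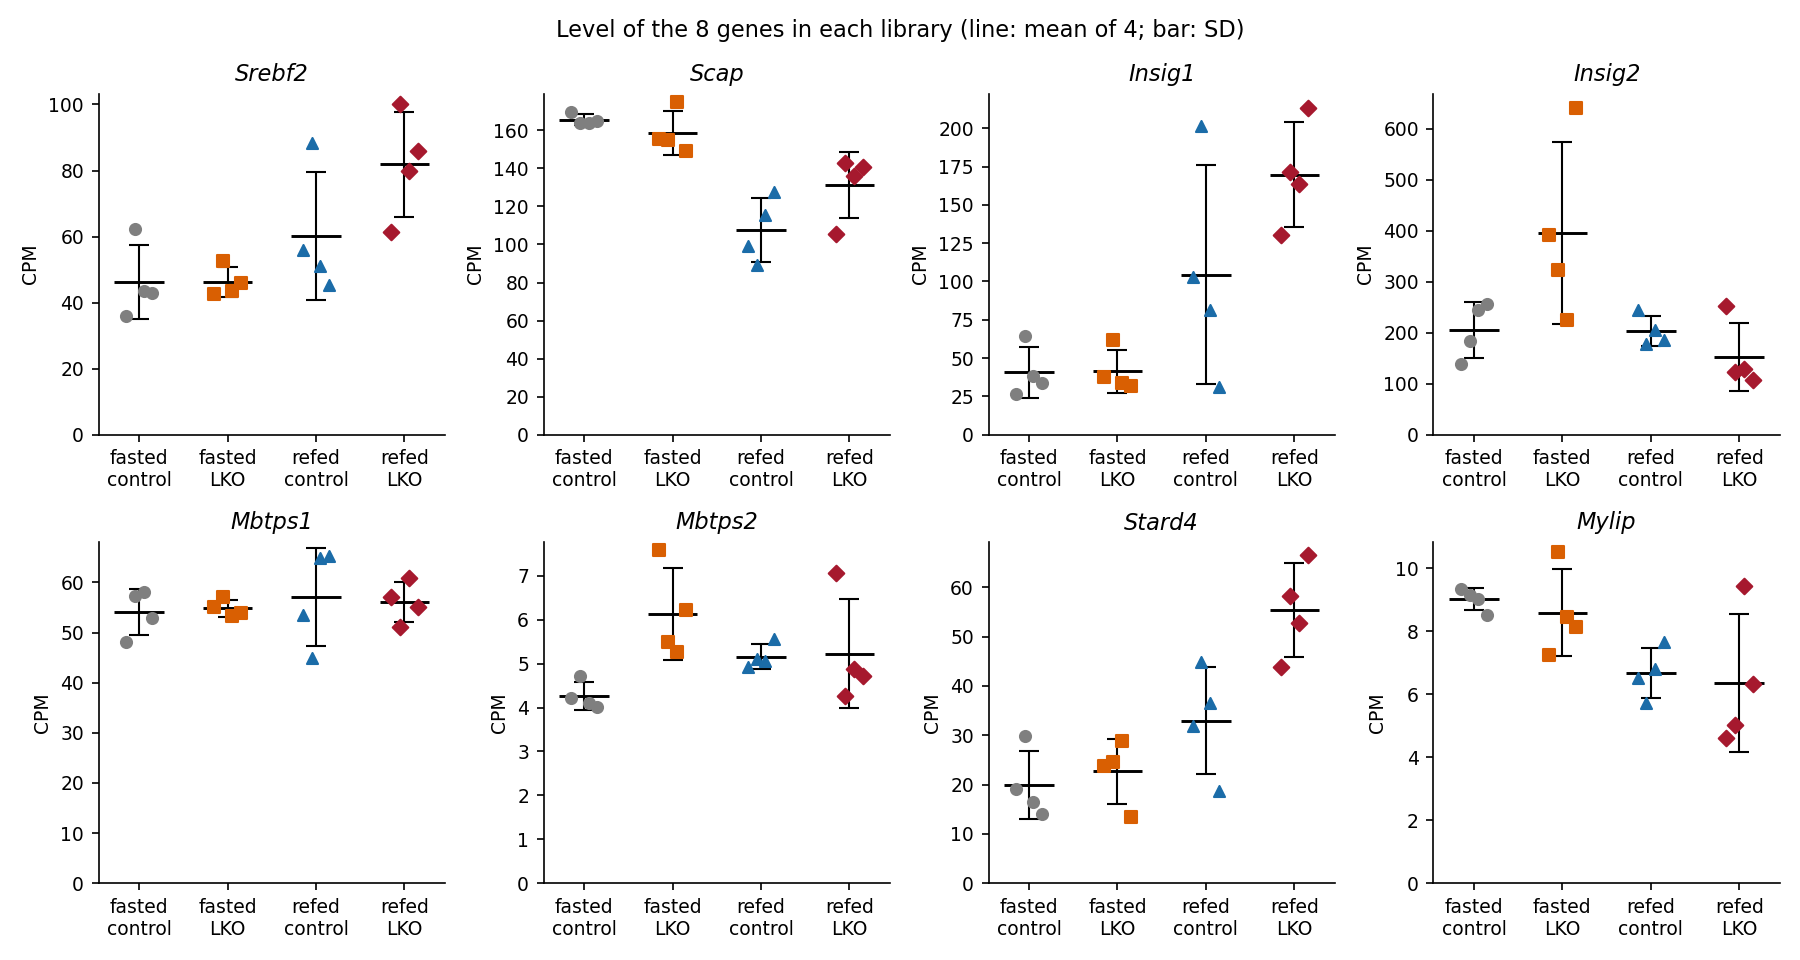
Level of each of the 8 genes in CPM (y axis, from 0) in every library, by group; points are libraries, the line is the mean of 4 and the bar its SD. Refed LKO libraries are the highest group for Srebf2, Insig1 and Stard4, refed control library S49 is the highest of its group for the same 3 genes, and fasted LKO libraries for Insig2 spread from 225 to 641 CPM.

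The tests are edgeR's quasi-likelihood tests with Benjamini-Hochberg adjustment over 14488 genes, and a gene is called at an adjusted p under 0.05. Among the 8 members, 1 was called between fasted LKO and fasted control, where 12.2% of all genes were called. Between refed LKO and refed control 0 were called, against 3.63% of all genes; 3 of the 8 had an unadjusted p under 0.05 in edgeR, and DESeq2 and limma-voom each called 0. On refeeding, 2 were called in control livers, against 15.4% of all genes, and 4 in LKO livers, against 18.1%. Whether the genotype difference itself changed with refeeding was tested as an interaction, in which 0 of the 8 and 0.538% of all genes were called; 3 of the 8 had an unadjusted p under 0.05 in edgeR, and DESeq2 and limma-voom each called 0. Counting genes whose 4 libraries in one group do not overlap the 4 in the other, there was 1 member for fasted genotype (16.9% of all genes), 0 for refed genotype (11.7%), 3 for refeeding in control (20.4%) and 4 for refeeding in LKO (20.6%). The median log2 fold change of the 8 was 0.02, 0.15, 0.18 and -0.10 in the 4 comparisons in that order, beside 0.02, -0.01, 0.01 and -0.02 for all genes tested. Each group enters a pair of these comparisons, so their values are set side by side and are not independent of each other.

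**Figure D2:**
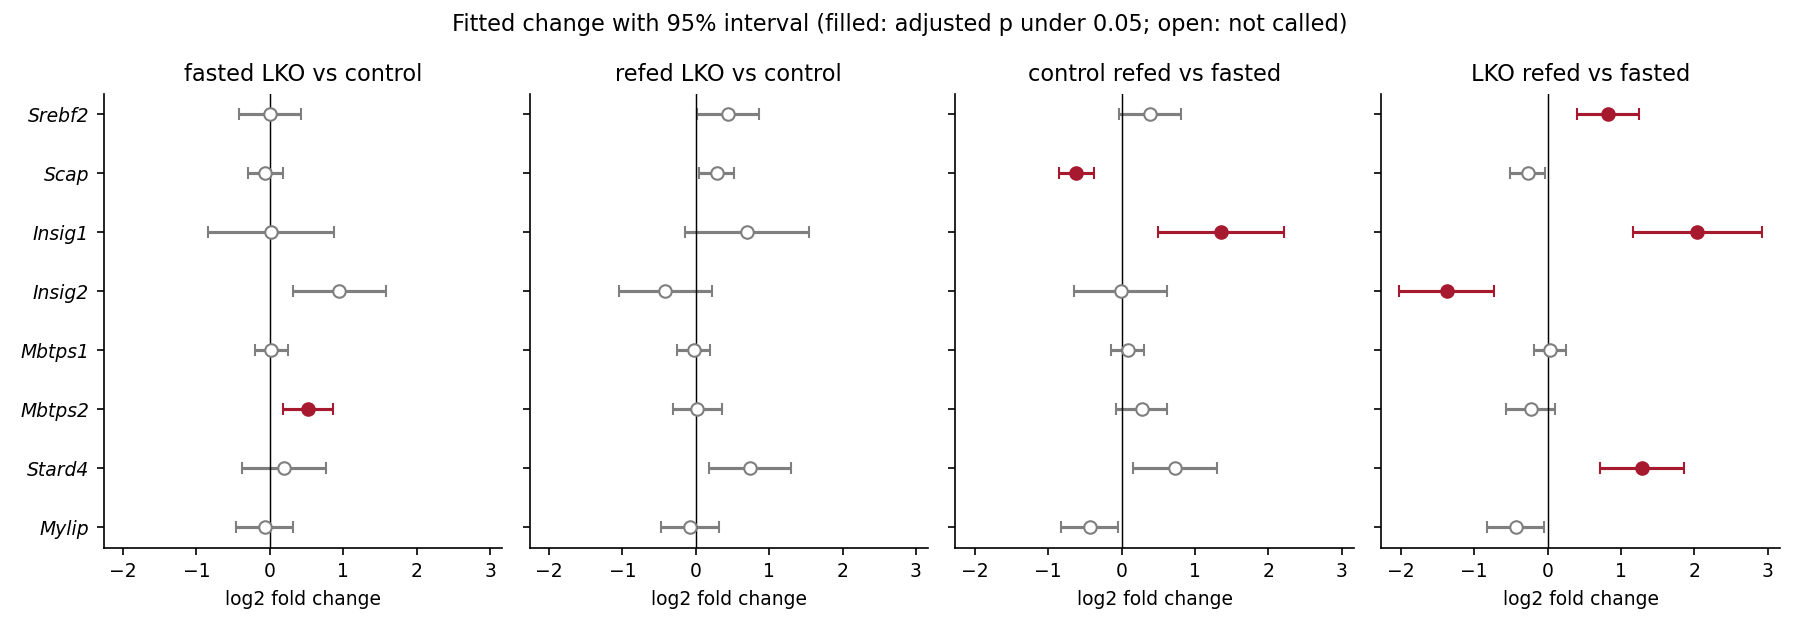
Fitted log2 fold change (x axis) of each of the 8 genes with its 95% interval, 1 panel per comparison; filled points are called at an adjusted p under 0.05 and open points are not. Filled points number 1 for fasted genotype, 0 for refed genotype, 2 for refeeding in control and 4 for refeeding in LKO. The interaction is not drawn.

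Srebf2 encodes the SREBP-2 precursor (ENSMUSG00000022463; 15:82031382-82089580, plus strand, in the deposited coordinates, for which the submitters' processing notes name mm39). Its level was 36.0, 62.2, 43.4 and 42.9 CPM in the fasted control libraries and 42.6, 52.7, 43.4 and 46 CPM in fasted LKO. After refeeding, control livers had 55.8, 88.3, 51.2 and 45.2 CPM, and LKO livers 61.4, 100.1, 79.8 and 86.0 CPM. Every refed LKO library but the lowest was above every fasted library, and that lowest one, S52, was above all 4 fasted LKO libraries. Srebf2 therefore rose on refeeding in LKO livers, with a log2 fold change of 0.82 (SE 0.20, edgeR adjusted p = 0.00914) and no overlap between the groups. In control livers the change was 0.38 (SE 0.20, edgeR adjusted p = 0.213), and without library S49 it was 0.14. The 2 fasted groups had nearly the same mean, 46.1 ± 11.2 and 46.2 ± 4.60 CPM (SD, n = 4), with a log2 fold change whose 95% interval ran from -0.42 to 0.43. Refed LKO exceeded refed control by 0.44 (SE 0.20, edgeR adjusted p = 0.242), which is not a call. Without S49, the highest refed control, this difference was 0.69 and was called (edgeR adjusted p = 0.0457).

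Scap, the sterol-sensing escort of the SREBPs (ENSMUSG00000032485; 9:110162356-110214018, plus strand), went the other way on refeeding. It stood at 169.8, 164, 164 and 165 CPM in fasted control and at 99.0, 89.2, 115 and 127 CPM in refed control livers, and the groups did not overlap. The fall was 0.62 on the log2 scale, a log2 fold change of -0.62 (SE 0.11, edgeR adjusted p = 0.00235), and it held when each library in turn was left out. LKO livers had 155, 155, 175 and 149 CPM when fasted and 106, 143, 136 and 141 CPM when refed. These groups did not overlap either, but the change of -0.27 (SE 0.11) was not called (edgeR adjusted p = 0.104). Refed LKO was above refed control by 0.29 (SE 0.11, edgeR adjusted p = 0.173). Scap and Srebf2, whose products form 1 complex, thus had opposite signs of change on refeeding in both genotypes, with Scap called in control livers and Srebf2 in LKO livers, and neither interaction was called (edgeR adjusted p = 0.280 for Scap and 0.459 for Srebf2).

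Insig1 encodes the INSIG protein whose gene is itself a target of SREBP (ENSMUSG00000045294; 5:28276361-28283660, plus strand). It was 26.5, 64.6, 38.3 and 33.8 CPM in fasted control and 37.7, 61.8, 33.5 and 31.9 CPM in fasted LKO, ranges that lie on top of each other. On refeeding it reached 103, 202, 81.5 and 31.1 CPM in control and 130.4, 171, 164 and 213 CPM in LKO livers. All 4 refed LKO libraries exceeded every fasted library, whereas refed control library S51 stayed within the fasted range and S49 reached the level of LKO. The rise in LKO was 2.04 on the log2 scale (SE 0.41, edgeR adjusted p = 0.00287), or 4.12-fold. The rise in control was 1.36 (SE 0.41, edgeR adjusted p = 0.0331) and lost its call when S40, S42, S43, S48 or S49 was left out; without S49 it was 0.82 (edgeR adjusted p = 0.139). DESeq2 called this rise (adjusted p = 0.0209), and limma-voom (adjusted p = 0.0700) and a fit of these groups alone (edgeR adjusted p = 0.0795) did not. The refed genotype difference was 0.70 (SE 0.40, edgeR adjusted p = 0.372), and without S49 it was 1.24 (edgeR adjusted p = 0.0790).

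Insig2 encodes the other INSIG, which also retains SCAP but is not driven by SREBP, and a transcript of it is enriched in liver and lowered by insulin (ENSMUSG00000003721; 1:121232082-121260318, minus strand). Its libraries had 138, 183, 244 and 255 CPM in fasted control and 392, 323, 225 and 641 CPM in fasted LKO. The refed controls had 244, 178, 205 and 186 CPM, and the refed LKO livers 252, 122, 129 and 107 CPM. In the fasted state 3 of the 4 LKO libraries were above every control, and the fourth lay among the controls. In the refed state 3 of the 4 LKO libraries were below every control, and the fourth, S52, was above them all. The fasted genotype difference was 0.95 on the log2 scale (SE 0.30, 1.93-fold) and just missed the threshold (edgeR adjusted p = 0.0501). It passed with RLE scaling (0.0497), upper quartile scaling (0.0423), no filter on low counts (0.0440) or a minimum mean of 5 CPM (0.0410), and without S45 (0.0463) or S46 (0.0256), all as edgeR adjusted p. In the other 9 of 15 alternative fits, DESeq2, limma-voom and a fit of these groups alone among them, it was not called. Leaving out a library gave an edgeR adjusted p of up to 0.167. After refeeding the LKO livers differed from controls by -0.41 (SE 0.30, edgeR adjusted p = 0.502), and -0.77 without S52 (edgeR adjusted p = 0.149).

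On refeeding, Insig2 fell in LKO livers by 1.37 on the log2 scale (SE 0.30, edgeR adjusted p = 0.00511), which is 2.59-fold lower, and by 1.73 without S52, the 1 refed library that overlapped the fasted range. In control livers the change was -0.01, with a 95% interval from -0.64 to 0.62. The difference between these responses was -1.36 (SE 0.43), with an unadjusted p of 0.00538 and an edgeR adjusted p of 0.130, so it was not called; without S52 it was -1.72 (edgeR adjusted p = 0.0644).

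The INSIG genes were compared per length, as CPM per kilobase of gene (RPKM). Insig2 was the most abundant of the 8 genes, with a mean of the 4 group means of 68.9 RPKM, and Insig1 followed at 28.8 RPKM. The ratio of Insig1 to Insig2 in RPKM was 0.215, 0.396, 0.177 and 0.149 in fasted control and 0.108, 0.215, 0.167 and 0.0558 in fasted LKO. After refeeding it was 0.473, 1.27, 0.446 and 0.187 in control livers, and 0.580, 1.58, 1.42 and 2.25 in LKO livers. Insig2 RNA exceeded Insig1 RNA in all 8 fasted libraries, and Insig1 exceeded Insig2 in 3 of 4 refed LKO livers and in 1 of 4 refed controls, S49. The refed LKO libraries were all above the fasted LKO ones, and refed control overlapped both fasted control and refed LKO.

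**Figure D3:**
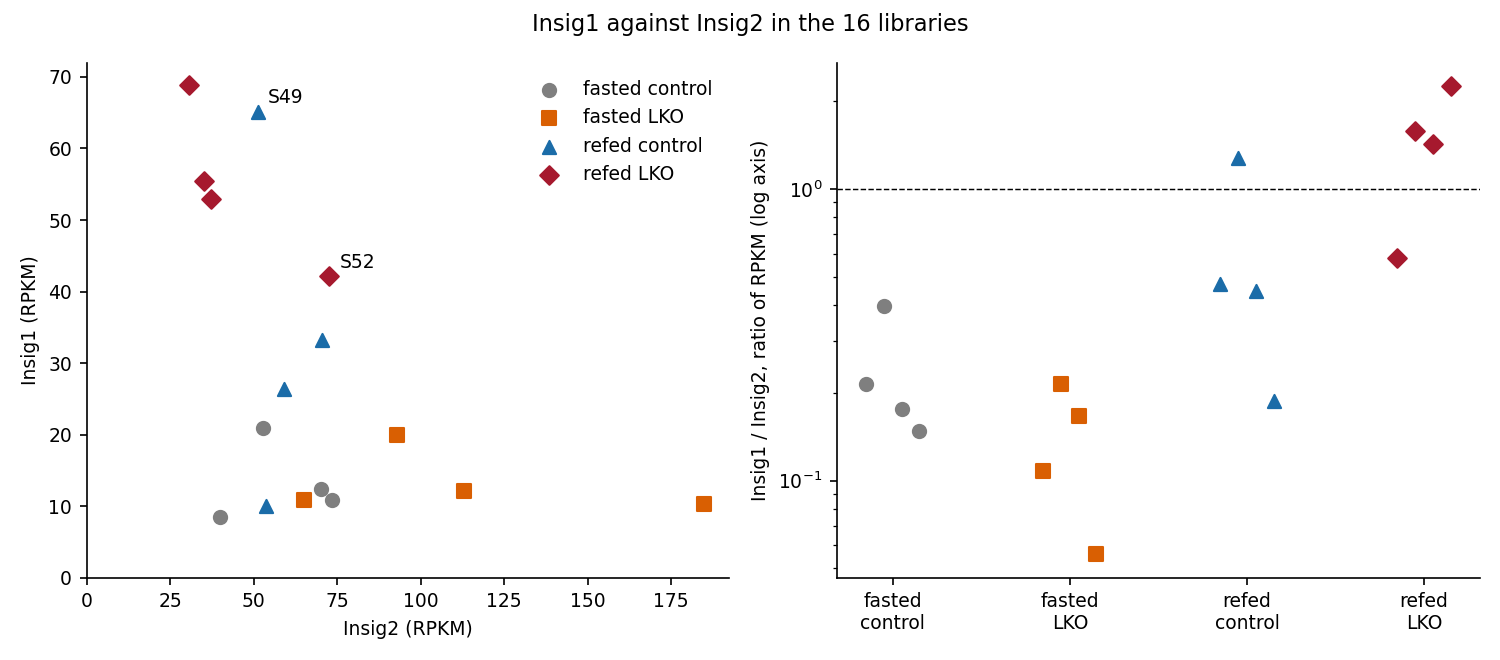
Left, Insig1 against Insig2 in RPKM in the 16 libraries, coloured by group; right, the ratio of Insig1 to Insig2 per library on a log axis, with a dashed line at 1. The 4 libraries above the line are 3 refed LKO libraries and refed control library S49, and 3 fasted LKO libraries lie farthest to the right.

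Mbtps1 encodes the site-1 protease, which makes the first cut in SREBP in the Golgi (ENSMUSG00000031835; 8:120234895-120285474, minus strand). It was the steadiest gene of the set. Fasted livers averaged 54.1 ± 4.63 CPM in control and 54.8 ± 1.68 in LKO, and refed livers 57.2 ± 9.80 in control and 56.1 ± 4.03 in LKO (SD, n = 4). Its log2 fold changes between groups ran from -0.03 to 0.08, and their 95% intervals lay within -0.25 to 0.30.

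Mbtps2, on chromosome X, encodes the site-2 protease, which makes the second cut within the membrane (ENSMUSG00000046873; X:156318367-156381711, minus strand). It had the lowest level of the 8 genes per length, 0.514 RPKM on average. Fasted control libraries had 4.22, 4.73, 4.11 and 4.02 CPM and fasted LKO libraries 7.59, 5.49, 5.27 and 6.22 CPM, and the groups did not overlap. Mbtps2 was therefore higher in fasted LKO, by 0.53 on the log2 scale (SE 0.16, 1.44-fold, edgeR adjusted p = 0.0420). The call sat close to the threshold: it was lost when any of S40, S41, S42, S43, S44 or S47 was left out (edgeR adjusted p up to 0.149), with no filter on low counts (0.0712) and in a fit of these groups alone (0.0620). Refed control libraries had 4.92, 5.10, 5.05 and 5.57 CPM and refed LKO libraries 7.06, 4.25, 4.88 and 4.72 CPM. The difference between them was 0.02, with a 95% interval from -0.31 to 0.34, and the highest value came from S52. The refed and fasted control libraries did not overlap, but the change of 0.27 was not called (edgeR adjusted p = 0.280).

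Stard4 encodes a START-domain protein that carries cholesterol between membranes and whose gene is a target of SREBP-2 (ENSMUSG00000024378). Fasted control libraries had 19.2, 29.8, 16.6 and 14.0 CPM and fasted LKO libraries 23.7, 24.6, 28.9 and 13.4 CPM. Refed control libraries had 31.9, 44.8, 36.5 and 18.7 CPM and refed LKO libraries 43.8, 58.3, 52.7 and 66.5 CPM. The fasted groups overlapped throughout, and refed LKO lay above every fasted library. Stard4 rose on refeeding in LKO livers by 1.29 on the log2 scale (SE 0.27, 2.44-fold, edgeR adjusted p = 0.00359). In control livers the change was 0.73 (SE 0.27, edgeR adjusted p = 0.0766); it was called by DESeq2 (adjusted p = 0.0416) and without S41 or S51. In the refed state 3 LKO libraries were above all controls, and the difference of 0.74 (SE 0.26, 1.67-fold) had an unadjusted p of 0.0124 and an edgeR adjusted p of 0.134. Without S49 it was 0.92 (edgeR adjusted p = 0.0892).

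Mylip, the ligase that acts on the LDL receptor, was low in all groups (ENSMUSG00000038175; 13:45543218-45565498, plus strand). Fasted control libraries had 9.33, 9.16, 9.04 and 8.52 CPM and refed control libraries 6.52, 5.74, 6.81 and 7.67 CPM. Fasted LKO libraries had 7.24, 10.5, 8.46 and 8.14 CPM and refed LKO libraries 4.60, 5.04, 9.46 and 6.32 CPM. The control groups did not overlap, and the change on refeeding was -0.43 (SE 0.18, edgeR adjusted p = 0.121), called in a fit of these groups alone (edgeR adjusted p = 0.0354). In LKO livers it was -0.44 (SE 0.18, edgeR adjusted p = 0.115), and -0.68 with a call when S54, the highest refed LKO library, was left out (edgeR adjusted p = 0.00629). Neither genotype difference exceeded its error, with log2 fold changes of -0.07 in both states.

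The authors' deposited table gave close fold changes for the members and a partly different set of calls. For refeeding in LKO livers it called the same 4 genes. For fasted genotype the authors' deposited table called Insig2 (0.94, adjusted p = 0.0111) and gave Mbtps2 an adjusted p of 0.0585. For refed genotype it called Stard4 (0.75, adjusted p = 0.0260). For refeeding in control livers the authors' deposited table called Scap, Stard4 (adjusted p = 0.0413) and Mylip (adjusted p = 0.0264), and gave Insig1 an adjusted p of 0.0875.

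Library S49 was the highest refed control for Srebf2, Insig1 and Stard4 and the lowest for Scap, Insig2, Mbtps1 and Mylip. Relative to the mean of the other 3 refed controls in log2 CPM, it was 0.80 higher for Srebf2, 1.66 for Insig1 and 0.68 for Stard4. Library S52 was the lowest refed LKO for Srebf2, Insig1, Stard4, Scap and Mylip and the highest for Insig2 and Mbtps2. It was 1.08 above the mean of the other 3 for Insig2. In S49, Srebf2, Insig1 and Stard4 were thus high together with the cholesterol synthesis enzymes, and in S52 they were low together. What set these libraries apart was not tested. The 4 calls for refeeding in LKO livers were the same without S52.

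**Figure D4:**
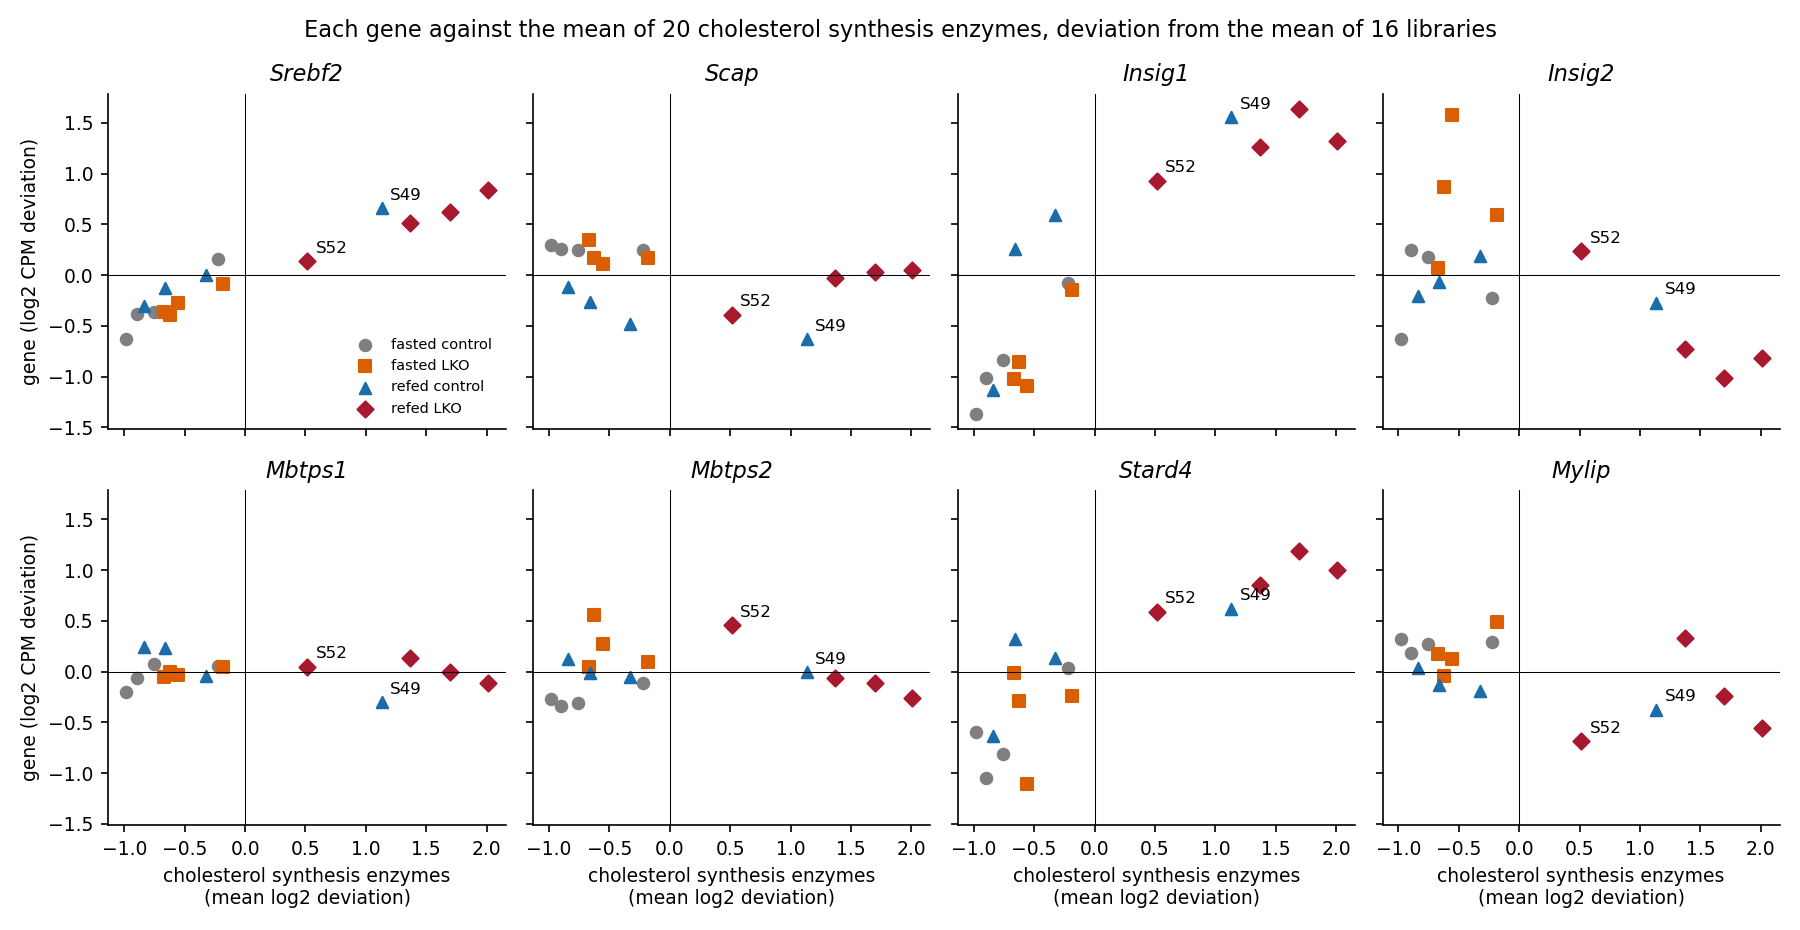
Each of the 8 genes (y axis, log2 CPM deviation from its mean over 16 libraries) against the mean deviation of 20 cholesterol synthesis enzymes (x axis) in the same libraries, coloured by group. Refed control library S49, at 1.13, lies within the range of the refed LKO libraries on the x axis, and 3 refed LKO libraries lie from 1.37 to 2.01. On the y axis S49 lies below all refed LKO libraries for Scap and Mbtps1 and within their range for the other genes.

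The 20 enzymes of cholesterol synthesis, which SREBP-2 is known to activate, were called mostly in the same comparison as Srebf2, Insig1 and Stard4. Where a listed gene is named with its value, its call held whichever library was left out unless the exception is given. In LKO livers 17 of 20 rose on refeeding and 0 fell, with a median log2 fold change of 2.04, and without S53 there were 16. Examples were Lss, lanosterol synthase, from 13.3 ± 1.79 to 71.1 ± 29.7 CPM (2.42, SE 0.34, edgeR adjusted p = 1.96e-04), and Idi1, isopentenyl diphosphate isomerase, from 2.58 ± 0.485 to 38.8 ± 19.0 CPM (3.90, SE 0.70, edgeR adjusted p = 0.00122) (SD, n = 4). In control livers 3 of 20 rose and 0 fell, with a median of 0.70; without S49, 0 rose and 1 fell, and without S40 or S43, 0 rose and 0 fell. In refed livers 7 of 20 were higher in LKO and 0 lower, with a median of 1.51, and the number ran from 0 without S48 to 19 without S49. In fasted livers 1 of 20 was higher in LKO, Hsd17b7, a sterol reductase, from 18.7 ± 4.76 to 51.1 ± 12.0 CPM (1.45, SE 0.27, edgeR adjusted p = 0.00278), and the median was 0.03. With all libraries in, the interaction gave 0 calls among the 20, against 0.538% of all genes. Without S49 it gave 13 higher. Of all genes, 9.28% rose on refeeding in LKO and 7.79% in control, and 2.28% were higher in refed LKO and 5.75% in fasted LKO.

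Among 16 partners of SCAP and the SREBPs, 2 were lower in fasted LKO than in fasted control livers, where 6.48% of all genes were lower. They were Srebf1, the gene of SREBP-1, at 38.0 ± 5.31 against 181 ± 27.2 CPM (-2.25, SE 0.28, edgeR adjusted p = 2.38e-04), and Rnf5, a ubiquitin ligase of the endoplasmic reticulum (-0.33, edgeR adjusted p = 0.0201, lost without S40, S44 or S47). Srebf1 was thus called between fasted genotypes, and Srebf2 was not. On refeeding Srebf1 rose in both genotypes, by 1.05 in control (edgeR adjusted p = 0.0159, and 0.0615 without S48) and by 2.61 in LKO (edgeR adjusted p = 3.32e-05). In control livers 4 partners rose and 1 fell, where 7.79% of all genes rose and 7.65% fell. Srebf1, the acetyltransferase genes Crebbp (0.47) and Ep300 (0.47) and the Golgi anchor gene Paqr3 (0.56, lost in 6 of 8 fits that left out a library) rose. Crtc2 fell by 0.36 (lost without S40). In LKO livers Srebf1 was the 1 partner called on refeeding, where 18.1% of all genes were called. Between refed genotypes Crebbp was the 1 called, against 3.63% of all genes. It was lower in LKO by 0.34 (edgeR adjusted p = 0.0283), a call lost when any library but S51 was left out. The medians of the list lay between -0.13 and 0.18.

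Of 12 genes of the COPII coat that carries SCAP to the Golgi, 4 rose and 0 fell on refeeding in control livers, where 7.79% of all genes rose and 7.65% fell. Sec23b, an inner coat subunit, went from 35.4 ± 5.09 to 55.5 ± 9.49 CPM in control (0.65, SE 0.12, edgeR adjusted p = 0.00272) and from 24.1 ± 2.16 to 53.2 ± 3.54 CPM in LKO livers (1.14, SE 0.12, edgeR adjusted p = 3.32e-05). Sec31a, of the outer coat, rose in control (0.40) and in LKO (0.34), and Sec13 (0.33, lost without S42, S43 or S48) and Sec24d (0.53, lost without S40, S43 or S50) rose in control. In LKO livers 2 rose and 1 fell, Sec24b, by 0.37, where 9.28% of all genes rose and 8.78% fell. In fasted livers the pair of SEC23 genes split: Sec23b was lower in LKO by 0.55 (edgeR adjusted p = 0.00834) and Sec23a higher by 0.59 (edgeR adjusted p = 0.00500). In refed livers 0 of 12 were called by edgeR between genotypes, against 3.63% of all genes. List medians were 0.12 (fasted genotype), -0.01 (refed genotype), 0.24 (refeeding in control) and 0.15 (refeeding in LKO).

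Among 15 partners of the INSIGs in the degradation of the sterol-synthesis reductase, 4 were higher and 2 lower in fasted LKO livers, where 5.75% of all genes were higher and 6.48% lower. The ubiquitin ligase gene Syvn1 was lower, at 76.5 ± 18.9 against 131 ± 22.6 CPM (-0.78, SE 0.18, edgeR adjusted p = 0.0108), and so was Tmub1 (-0.64, edgeR adjusted p = 0.00208), which encodes a membrane protein of the same complex. The higher ones, Ufd1 (0.30), Nploc4 (0.27), Vcp (0.31) and the deubiquitinase gene Usp20 (0.44), had edgeR adjusted p from 0.0245 to 0.0489, and each lost its call in at least 3 of 8 fits that left out a library. The first 3 encode the segregase that pulls ubiquitinated proteins from the membrane and its cofactors. In refed livers Erlin1 was higher in LKO (0.41, edgeR adjusted p = 0.0280, lost in 6 of 8 such fits). On refeeding Tmub1 fell in control livers by 0.56, and in LKO livers Syvn1 rose by 0.60 (lost in 5 of 8 such fits) and Erlin2 fell by 0.35. List medians lay between 0.07 and 0.12 in the 4 comparisons.

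Other substrates of the site-1 and site-2 proteases, 7 of 8 of which were tested, held 0 edgeR calls between genotypes in either state and 0 for refeeding in control livers. The shares of all genes called were 12.2% between fasted genotypes, 3.63% between refed genotypes and 15.4% for refeeding in control. In LKO livers Atf6b, a stress-sensing factor, rose on refeeding by 0.47 (edgeR adjusted p = 0.00568), and Creb3l3, a liver factor of lipid metabolism, fell by 0.43 (edgeR adjusted p = 0.0179, lost without S46 or S52). Of all genes, 9.28% rose and 8.78% fell on refeeding in LKO livers. List medians lay between -0.13 and 0.06.

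Among 13 tested of 15 listed partners of MYLIP or genes of LDL receptor traffic, 2 were lower in fasted LKO livers and 1 in refed. Of all genes, 6.48% and 1.35% were lower in those comparisons. Vldlr, another lipoprotein receptor that MYLIP marks for degradation, averaged 4.52 ± 1.48 CPM in control and 1.71 ± 0.866 in LKO livers when fasted (-1.41, SE 0.32, edgeR adjusted p = 0.00967). When refed it averaged 3.62 ± 0.456 and 1.26 ± 0.397 CPM (-1.52, SE 0.33, edgeR adjusted p = 0.0191), and the refed call was lost without S50, S53 or S55. Snx17, of receptor recycling, fell on refeeding by 0.25 in control livers (lost in 7 of 8 fits that left out a library). In LKO livers Ube2d1, a ubiquitin-conjugating enzyme that works with MYLIP, fell on refeeding by 0.68 (edgeR adjusted p = 0.00406), and Commd1 rose by 0.30 (lost in 7 of 8 such fits). List medians lay between -0.06 and 0.11.

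The LXR receptors and their targets, 11 genes, include the factors that induce Mylip. Nr1h2, LXR beta, fell on refeeding from 73.4 ± 3.92 to 50.03 ± 2.34 CPM in control (-0.55, SE 0.07, edgeR adjusted p = 3.71e-04) and from 69.6 ± 3.86 to 51.2 ± 4.14 CPM in LKO livers (-0.44, SE 0.07, edgeR adjusted p = 6.47e-04). Nr1h3, LXR alpha, rose in LKO livers by 0.45 (edgeR adjusted p = 0.00262). With the receptors included, 1 gene of the list rose on refeeding and 2 fell in control, and 2 rose and 3 fell in LKO, with medians of -0.40 and 0.08. Of all genes, 7.79% rose and 7.65% fell in control, and 9.28% rose and 8.78% fell in LKO. The targets did not share a direction: in control Srebf1 rose and Lpcat3 fell (lost without S40, S48, S49 or S50). In LKO Srebf1 rose, and Lpcat3 and Plin2 fell. In fasted LKO livers Plin2, a lipid droplet coat gene also induced by fatty acids, was higher by 1.38 (edgeR adjusted p = 0.00224) and Srebf1 lower. Between refed genotypes 0 of the 11 were called by edgeR, against 3.63% of all genes.

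Of the other genes of sterol transport and storage, 17 of 19 were tested. Tmem97, which encodes a sterol-binding regulator of the lysosomal cholesterol exporter, was higher in LKO than in control livers after refeeding, at 105 ± 21.9 against 63.3 ± 10.5 CPM (0.73, SE 0.14, edgeR adjusted p = 0.0114), the 1 call of the list in that comparison, and it rose on refeeding in LKO livers by 0.69. Lipa, lysosomal acid lipase, was higher in fasted LKO at 301 ± 62.0 against 155 ± 10.1 CPM (0.96, SE 0.12, edgeR adjusted p = 2.38e-04). The Lipa interaction was the 1 called among all the lists (-0.94, SE 0.17, edgeR adjusted p = 0.0261, lost without S40, S48, S50 or S55), against 0.538% of all genes. On refeeding Lipa rose in control livers by 0.41 (lost in 5 of 8 fits that left out a library) and fell in LKO livers by 0.53. Gramd1c and Osbp, of cholesterol transfer at membrane contacts, rose on refeeding in both genotypes, by 0.72 and 0.37 in control and by 0.63 and 0.42 in LKO. The Osbp call was lost in 4 of 8 such fits in control, and that of Gramd1c without S52 or S55 in LKO. Npc1, the lysosomal exporter, fell on refeeding in LKO livers by 0.72 (edgeR adjusted p = 0.00777). Of all genes, 2.28% were higher in refed LKO than in refed control livers. List medians lay between -0.12 and -0.04.

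For each member, the genes with the most similar profile were taken as those with the highest Pearson r of log2 CPM over the 16 libraries, among 8991 protein-coding genes. These r are descriptive, since the libraries share groups. Srebf2 was closest to a pair of cholesterol synthesis genes, Msmo1 (r = 0.965) and Nsdhl (r = 0.962). Scap was closest to Neu1 (0.958) and Plin3 (0.956), and Insig2 to Fas (0.928) and Clpx (0.922). Mylip was closest to Wipf3 (0.873) and Ric8a (0.871), Mbtps1 to Gse1 (0.848) and Abcc2 (0.846), and Mbtps2 to Rnf11 (0.780) and Tpd52 (0.759). The coefficient of variation within a group of 4 ranged from 1.74%, for Scap in fasted control, to 68.6%, for Insig1 in refed control. In both LKO groups it was largest for Insig2, at 44.9% fasted and 44.02% refed. Per length, the order of mean levels was Insig2, Insig1, Scap (18.9 RPKM), Srebf2 (8.15), Stard4 (5.86), Mbtps1 (5.27), Mylip (2.37) and Mbtps2. The group means of Stard4 overlapped in range with those of Srebf2 and of Mbtps1, and those of Insig1 with Scap and with Insig2. Within each group the mean of Srebf2 was above that of Stard4. Scap was above Insig1 in fasted livers, at 22.2 against 13.2 RPKM in control and 21.3 against 13.3 in LKO. In refed livers Scap was below Insig1, at 14.5 against 33.7 RPKM in control and 17.6 against 54.9 in LKO. Mylip and Mbtps2 lay below every other member in each group.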

How the data were processed

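Poly-A RNA libraries made with random hexamers and dUTP, per the labels' protocols, were counted by the authors, who deposited raw read counts per gene in 4 tables of 8 libraries each. Alignment with HISAT2 2.0.5 and the build mm39 are named per the submitters' processing notes; the counting tool, its strand setting and the annotation are not given in the sources used here. The authors' log2 fold changes and adjusted p-values are in the deposited tables, with no tool named, and their sign was turned to LKO over control and refed over fasted. Gene lengths are those the authors deposited. Their tables' 64 normalized and FPKM columns were left aside.

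Count columns S40 to S55 carry no replicate number, and the group heading shared by the tables holding a column gave its group. Nothing in the labels names the animal behind a library beyond its number, so p-values measure the spread between libraries. The tables were joined into 25803 genes; a gene absent from both tables holding a library was set to 0 there, which touched 3148 genes and 0 of those tested. Library totals were 14721601 to 24618230 counts, and in no pair of libraries of a group did counts agree within sampling noise: chi-square per degree of freedom over tested genes was at least 14.6.

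Counts were fitted in R 4.3.3 with edgeR 4.0.16 (filterByExpr, TMM factors of 0.941 to 1.07, glmQLFit with 1 factor of 4 groups, glmQLFTest), tested on simulated data first. The SE is the log2 fold change divided by the square root of F. CPM and RPKM computed here use TMM-scaled totals, and log2 CPM a prior count of 2. Alternatives were RLE and upper quartile scaling, no filter, a minimum mean of 5 CPM, DESeq2 1.42.0, limma-voom (limma 3.58.1), only the groups compared, an adjusted p under 0.01, and each library left out. The 8 members, the lists and the tests were chosen with earlier results of these data known. Named genes are the members, Cpt1a, genes of the lists, and the 2 genes most correlated with each member; which list genes to name was decided with values in view. Some genes the rule picks are not reported here. Genes overlapping a member averaged at most 0.370 CPM.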

Additional observations from a re-analysis of the deposited data

Results flagged for a closer look

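A library far from the other 3 of its group was looked for in 32 groups of 4 (8 genes in 4 groups), by comparing the gap to the nearest library with the whole range of the group. At Dixon's 95% critical value, chance alone picks out about 1 in 20 groups, and 2 of the 32 exceeded it. Scap in fasted control had a share of 0.834, from 169.8 CPM in S40 against 164 to 165 CPM in the others, in a group whose whole spread was narrow. Insig2 in refed LKO had a share of 0.843, from 252 CPM in S52 against 107 to 129 CPM in the others. The fall of Insig2 on refeeding in LKO livers was called with S52 (-1.37) and without it (-1.73).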

How the results depend on the processing

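No paired analysis was possible because the count columns carry no replicate number. Of the members called between fasted genotypes, 1 became 0 at an adjusted p under 0.01 and with only the groups compared, and 2 with RLE scaling, upper quartile scaling or a minimum mean of 5 CPM; leaving out a library gave 0 to 2. The other member counts gave 0 to 1 (refed genotype), 1 to 3 (refeeding in control), 4 to 5 (refeeding in LKO) and 0 to 0 (interaction) over the libraries left out; refeeding in control gave 1 at 0.01 and 1 with limma-voom.

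Over all genes, calls at 0.01 numbered 663 (fasted genotype), 127 (refed genotype), 822 (refeeding in control), 1265 (refeeding in LKO) and 0 (interaction). Leaving out a library gave 1048 to 1985, 197 to 517, 1220 to 2483, 1795 to 2448 and 8 to 282 in that order. DESeq2 called 924 for refed genotype and 467 for the interaction, which had 195 with a minimum mean of 5 CPM.

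Signs changed only for log2 fold changes near 0. Srebf2 between fasted genotypes was -0.00246 with RLE scaling, -0.00486 with no filter, -0.00260 with DESeq2 and -0.00168 with only the groups compared. Insig2 on refeeding in control was 0.0164 with limma-voom, and the Mylip interaction was 0.00580 with RLE scaling, 0.0101 with no filter and 0.00580 with DESeq2. Over the libraries left out, fasted genotype ran from -0.10 to 0.18 for Srebf2, -0.25 to 0.33 for Insig1, -0.0346 to 0.0475 for Mbtps1 and -0.19 to 0.00499 for Mylip. Refed genotype ran from -0.13 to 0.0412 for Mbtps1, -0.16 to 0.11 for Mbtps2 and -0.32 to 0.0553 for Mylip. Insig2 on refeeding in control ran from -0.16 to 0.11, Mbtps1 on refeeding in LKO from -0.00690 to 0.0751, and the interaction from -0.15 to 0.0226 for Mbtps1 and -0.25 to 0.13 for Mylip. The causes were not tested. With 4 libraries a group, the 95% interval of the refed genotype difference reached from -0.14 to 1.54 for Insig1, so this depth of replication did not settle its sign.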
